A study of Mus musculus with 6 samples.

Results

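Levels of 10 RNA splicing regulators were measured in infarcted mouse hearts: *Rbm20*, *Rbm24*, *Mbnl1*, *Mbnl2*, *Celf1*, *Celf2*, *Rbfox1*, *Rbfox2*, *Ptbp1* and *Srsf5*. They are taken by name, as regulators known from heart muscle, and each was found as 1 of the 38293 genes of the count table by its Ensembl identifier. All 10 passed edgeR's filter on low counts, which left 14746 genes to test. The RNA-seq libraries came from hearts of 3 mice labelled WT and 3 labelled *Zeb2* cKO, of a backcrossed C57BL/6J strain, collected 14 days after MI by permanent occlusion of the LAD artery. Mice of both groups carry the floxed *Zeb2* allele and had an infarct. The WT mice are *Zeb2* fl/fl and are named so here, and the *Zeb2* cKO group also carries Cre under the cardiomyocyte promoter of *Myh6*, so that *Zeb2* is deleted in cardiomyocytes while the reads come from all cells of the tissue. The labels place the tissue in the border region of the infarct and the methods of the study in the remote zone.

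These proteins bind short motifs in nascent transcripts and decide which exons are kept in the mature mRNA. RBM20 represses inclusion of exons of titin and of other sarcomere and calcium handling genes, and its mutations cause dilated cardiomyopathy. MBNL and CELF proteins act against each other in the shift from fetal to adult exon use in heart and skeletal muscle, and MBNL proteins are the ones trapped by the expanded RNA repeats of myotonic dystrophy. RBFOX proteins bind a UGCAUG element and RBM24 promotes muscle exons, whereas PTBP1 binds pyrimidine-rich tracts and represses many muscle and neuronal exons outside these cells. SRSF5 belongs to the SR proteins, which favour exon inclusion. The values given here are counts per gene, so they show how much RNA of a regulator was present and not which of its isoforms, nor how any target was spliced.

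Total counts per library ran from 37288174 to 51136331, of which 14301225 to 19024394 lay outside the mitochondrially encoded genes, and the 10 regulators had between 266 counts (*Rbfox1*) and 9606 counts (*Mbnl1*) in a library. Levels are given as CPM, counts scaled to a common library size set with edgeR's TMM method, in the order of replicates 1, 2 and 3. *Zeb2* itself had 61.3, 116.05 and 71.9 CPM in *Zeb2* fl/fl mice, against 59.6, 72.6 and 66.5 CPM in *Zeb2* cKO mice, with overlapping groups (log2 fold change -0.33, and -0.0058 without *Zeb2* fl/fl replicate 2), so its level in the whole tissue did not separate the labels. *Zeb2* fl/fl replicate 2 stood apart from the other 5 libraries in the composition of its RNA. Its 12 cardiomyocyte markers summed to 15739 CPM, against 24085 to 30434 CPM in the other libraries. Of them 10, such as *Myh6* and *Tnnt2*, lay below the other 5 libraries. *Nppa* lay above them (717 against 131 to 337 CPM) and *Myl2* among them. The 10 fibroblast markers summed to 9702 CPM in this library and to 1723 to 2375 CPM in the others, and the 10 macrophage markers to 888 CPM against 223 to 313 CPM. Each of these fibroblast and macrophage markers was highest in it. Endothelial markers were uneven in it: their sum was lowest (529 against 595 to 709 CPM), but it was below the other 5 libraries in 5 markers, such as *Kdr* and *Cdh5*, and above them in the other 5, such as *Emcn* and *Vwf*. The sum of 8 smooth muscle and pericyte markers was lowest too (559 against 650 to 779 CPM), with 4 markers below the other libraries, among them *Rgs5*, and *Pdgfrb* and *Tagln* above them. Skeletal muscle markers, which include genes that heart muscle expresses, summed to 653 CPM in it and to 870 to 1801 CPM in the others. Of this sum, 375 CPM was *Acta1*, which lay among the other libraries, and 277 CPM *Ckm*, which lay below them. Neuronal and Schwann markers were low throughout, at 2.70 to 4.38 CPM in sum, with *Snap25*, *Syt1* and *Rbfox3* among those at 0 in at least 1 library. In tissue of mixed cells, fewer cells of a type and less RNA per cell cannot be told apart. The genotype differences of the regulators are therefore given with and without this library.

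**Figure D1:**
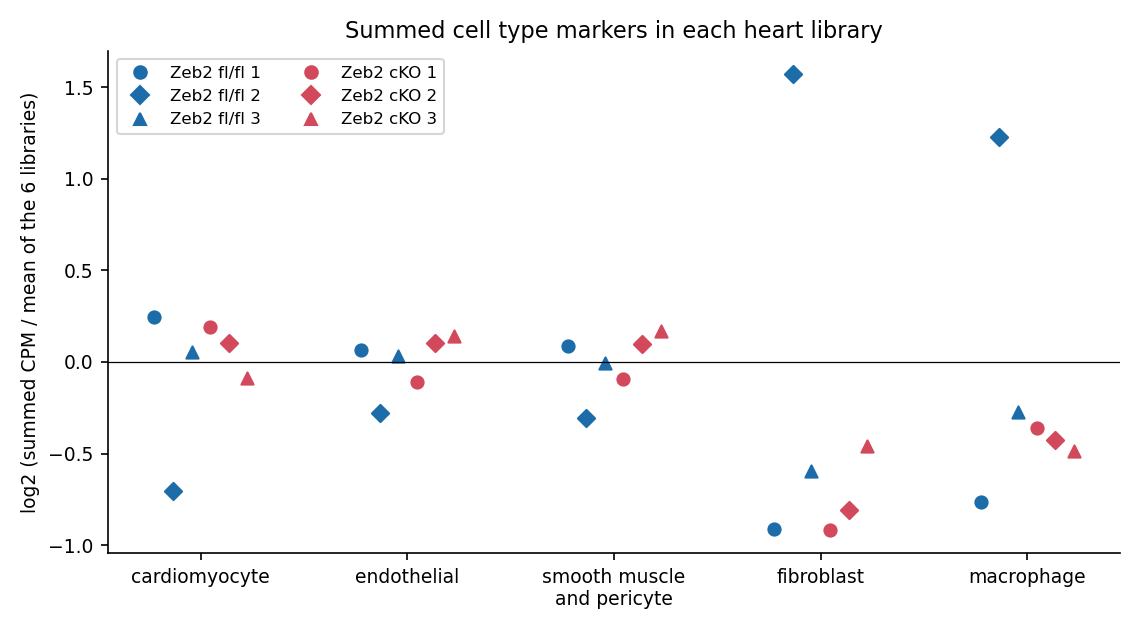
Summed CPM of marker genes of 5 cell types in each library, as the log2 ratio to the mean of the 6 libraries (y axis). Blue symbols are *Zeb2* fl/fl and red symbols *Zeb2* cKO hearts, and the shape gives the replicate number. Replicate 2 of *Zeb2* fl/fl has the lowest cardiomyocyte sum (15739 CPM) and the highest fibroblast and macrophage sums (9702 and 888 CPM).

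The promoters of *Rbm24* and *Ptbp1* are shown because the levels of these genes moved in opposite directions in the library that stood apart, and because the deleted factor ZEB2 is a repressor that binds E-boxes of the letters CACCTG. The sequences are the 250 bases before the annotated start in RefSeq on build GRCm38.p6, both on the plus strand, at chr13:46418050-46418299 for *Rbm24* and chr10:79854182-79854431 for *Ptbp1*. Capitals mark CACCTG or its reverse complement CAGGTG.
Rbm24: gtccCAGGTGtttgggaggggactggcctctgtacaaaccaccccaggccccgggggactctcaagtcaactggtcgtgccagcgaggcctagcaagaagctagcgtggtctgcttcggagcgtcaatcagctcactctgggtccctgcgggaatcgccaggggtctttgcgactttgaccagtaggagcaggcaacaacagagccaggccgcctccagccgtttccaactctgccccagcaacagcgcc
Ptbp1: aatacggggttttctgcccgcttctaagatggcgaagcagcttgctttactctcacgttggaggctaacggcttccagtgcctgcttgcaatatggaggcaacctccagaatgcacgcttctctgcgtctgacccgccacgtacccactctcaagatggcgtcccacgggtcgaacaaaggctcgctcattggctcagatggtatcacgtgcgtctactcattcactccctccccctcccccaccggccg
The *Rbm24* window holds 1 match, 246 bases before the start, and the *Ptbp1* window holds none. GC content was 62.4% with 12 CpG sites for *Rbm24* and 57.6% with 17 CpG sites for *Ptbp1*. A promoter entry was found for 8 of the 10 regulators, with 14 start sites between them, and for *Rbm20* and *Rbfox2* none was used. Of these 8 genes, *Rbm24* was the only one with a match, in 1 of the 14 windows. Of all 32851 RefSeq promoter windows of the same length, 17.2% hold one. Such a match describes the letters alone, and binding of ZEB2 was not measured here.

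To learn whether deletion of *Zeb2* in cardiomyocytes went with another level of any splicing regulator, *Zeb2* cKO hearts were compared with *Zeb2* fl/fl hearts. In no regulator did the groups separate. With edgeR's quasi-likelihood test and Benjamini-Hochberg adjustment over all tested genes, 0 of the 10 regulators had an adjusted p under 0.05, and neither did any other gene (0%). An unadjusted p under 0.05 was reached by 0 of the 10 regulators and by 1.9% of all tested genes, which are 280 genes. The unadjusted p-values of the regulators ran from 0.361 (*Ptbp1*) to 0.939 (*Mbnl2*), and the adjusted ones from 0.957 to 0.996. The groups failed to overlap in 0 regulators, while 2.97% of all tested genes were lower and 3.39% higher in *Zeb2* cKO hearts without overlap. A log2 fold change above 0.2 was seen for 2 regulators, *Rbm20* and *Rbfox1*, and one below -0.2 for 0, where 15.9% of all tested genes lay above 0.2 and 22.6% below -0.2. The median log2 fold change was 0.064 over the regulators and -0.0069 over all tested genes. These p-values measure the spread between 3 mice per group, and an exact permutation test of 3 against 3 cannot give a p under 0.1.

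**Figure D2:**
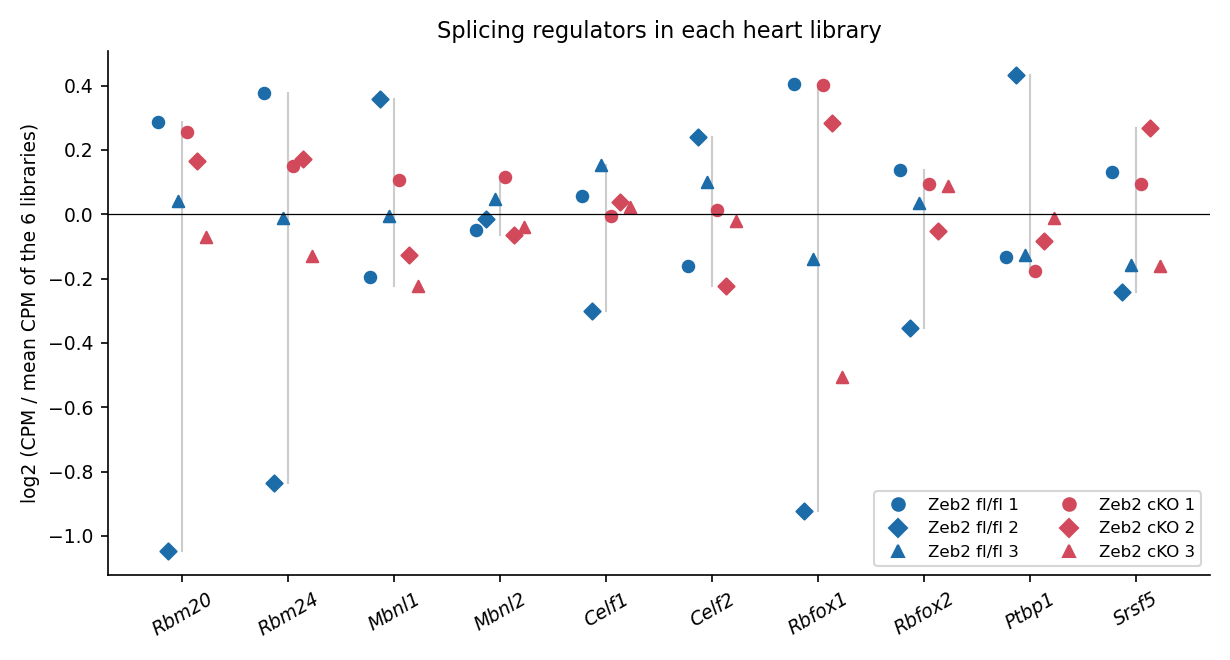
CPM of each splicing regulator in each library, as the log2 ratio to the mean CPM of the 6 libraries (y axis). Blue is *Zeb2* fl/fl, red is *Zeb2* cKO, the shape gives the replicate number, and the grey line spans the 6 libraries. The groups overlap in all 10 genes, and the blue diamond, *Zeb2* fl/fl replicate 2, is the lowest symbol in 6 genes and the highest in 3.

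*Rbm20* (ENSMUSG00000043639, plus strand of chromosome 19, 53677306 to 53867080 on GRCm38) had 159, 63.3 and 135 CPM in *Zeb2* fl/fl mice, against 156, 147 and 124 CPM in *Zeb2* cKO mice. *Zeb2* fl/fl replicate 2 was far below the other 5 libraries, which overlapped by genotype. Between the groups the log2 fold change was 0.26 (standard error 0.33, 95% interval -0.52 to 1.03). It was -0.043 without this replicate, with an interval of -0.36 to 0.27. Set against the summed cardiomyocyte markers of the same library, *Rbm20* was at 5.24, 4.02 and 5.05 CPM per 1000 CPM of markers in *Zeb2* fl/fl and at 5.33, 5.32 and 5.16 in *Zeb2* cKO hearts. On this scale replicate 2 was still lowest, at 0.770 times the mean of the other libraries, in place of 0.439 times in CPM. The part of the lower marker level in the *Rbm20* value was not tested beyond this ratio.

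*Rbm24* (ENSMUSG00000038132, chromosome 13), the regulator of muscle exons whose promoter is printed above, had 73.8, 31.9 and 56.4 CPM in *Zeb2* fl/fl mice, against 63.0, 64.1 and 52.0 CPM in *Zeb2* cKO mice. Again replicate 2 of *Zeb2* fl/fl was lowest, and replicate 1 of the same group was highest. The log2 fold change was 0.14 (standard error 0.29, 95% interval -0.55 to 0.84), and -0.12 without replicate 2. Per 1000 CPM of cardiomyocyte markers, *Rbm24* in this library was at 0.906 times the mean of the others, which ran from 2.12 to 2.42, in place of 0.515 times in CPM.

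*Rbfox1* (ENSMUSG00000008658, chromosome 16), the family member that is prominent in muscle and neurons, had 15.2, 6.06 and 10.4 CPM in *Zeb2* fl/fl mice, against 15.2, 14.0 and 8.10 CPM in *Zeb2* cKO mice. It varied most of the 10 among the *Zeb2* cKO hearts, where replicate 3 was the low library, and in *Zeb2* fl/fl replicate 2 was. Its log2 fold change of 0.23 (standard error 0.37) had the widest interval of the 10, from -0.64 to 1.11, and was -0.046 without *Zeb2* fl/fl replicate 2. *Rbfox2* (ENSMUSG00000033565, chromosome 15), which is expressed in many cell types, had 69.1, 49.1 and 64.3 CPM in *Zeb2* fl/fl mice, against 67.1, 60.6 and 66.7 CPM in *Zeb2* cKO mice. Replicate 2 was the lowest here too, by 25.1% of the mean of the others. For *Rbfox2* the log2 fold change was 0.091 (standard error 0.16, 95% interval -0.28 to 0.46), and it turned to -0.039 without this library.

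*Mbnl1* (ENSMUSG00000027763, chromosome 3) went the other way. It had 149, 219 and 170 CPM in *Zeb2* fl/fl mice, against 184, 156 and 146 CPM in *Zeb2* cKO mice, and replicate 2 of *Zeb2* fl/fl was the highest of the 6 libraries. Its log2 fold change was -0.15 (standard error 0.19, 95% interval -0.60 to 0.30), and 0.026 without that library. *Mbnl2* (ENSMUSG00000022139, chromosome 14), its close paralog with an overlapping set of targets, had 156, 160 and 167 CPM in *Zeb2* fl/fl mice, against 175, 155 and 157 CPM in *Zeb2* cKO mice. Its 6 libraries lay within 1.13-fold of each other, the narrowest range of the 10 genes, and replicate 2 lay among the others. For *Mbnl2* the log2 fold change was 0.010 (standard error 0.13, 95% interval -0.30 to 0.32), and 0.0089 without replicate 2.

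*Celf1* (ENSMUSG00000005506, chromosome 2), which favours fetal exons when raised, had 63.1, 49.3 and 67.6 CPM in *Zeb2* fl/fl mice, against 60.5, 62.4 and 61.7 CPM in *Zeb2* cKO mice. The *Zeb2* cKO libraries were nearly level, with a coefficient of variation of 1.52%, and lay between the low and the high libraries of *Zeb2* fl/fl. This gave a log2 fold change of 0.036 (standard error 0.15, 95% interval -0.31 to 0.38). Left without replicate 2, both remaining *Zeb2* fl/fl libraries lay above the 3 *Zeb2* cKO libraries at a log2 fold change of -0.084. In this comparison of 2 against 3 libraries, 7.22% of all tested genes were lower without overlap. *Celf2* (ENSMUSG00000002107, chromosome 2), the paralog that is abundant in blood cells and the nervous system, had 48.6, 64.2 and 58.2 CPM in *Zeb2* fl/fl mice, against 54.8, 46.5 and 53.6 CPM in *Zeb2* cKO mice. Replicate 2 had the highest *Celf2* level and replicate 1 of the same group one of the lowest. For *Celf2* the log2 fold change was -0.14 (standard error 0.15, 95% interval -0.49 to 0.20), and -0.045 without *Zeb2* fl/fl replicate 2. Without *Zeb2* fl/fl replicate 1 the *Celf2* groups did not overlap, as in 12.1% of all tested genes that were then lower.

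*Ptbp1* (ENSMUSG00000006498, chromosome 10), the repressor that differentiated muscle keeps low, had 19.5, 28.8 and 19.6 CPM in *Zeb2* fl/fl mice, against 18.9, 20.1 and 21.2 CPM in *Zeb2* cKO mice. One library alone was high, replicate 2 of *Zeb2* fl/fl, at 45.3% above the mean of the others, and those lay within 1.12-fold of each other. The log2 fold change was -0.17 (standard error 0.18, 95% interval -0.59 to 0.25), and 0.043 without this replicate. Sequence near-identical to other transcripts, at 95% identity or more over 75 bases or more, covers 28.1% of the longest *Ptbp1* transcript on its own strand (*Gm4900*, not used here) and 21.5% on the opposite strand, where *Plppr3* and other genes overlap it. *Plppr3* itself had 1 to 34 counts in a library, and the strand option of the counting is not given in the sources used here, so the *Ptbp1* count is uncertain to that extent.

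*Srsf5* (ENSMUSG00000021134, chromosome 12) had 59.4, 45.9 and 48.6 CPM in *Zeb2* fl/fl mice, against 57.9, 65.3 and 48.6 CPM in *Zeb2* cKO mice. Replicate 2 of *Zeb2* fl/fl was lowest, but by little, since a library of each genotype lay close to it. The log2 fold change was 0.16 (standard error 0.16, 95% interval -0.23 to 0.55), and 0.086 without that library. Of its longest transcript, 26.1% is near-identical to other genes on the same strand, among them *Gm12966* and *Csrnp3*. *Gm12966*, a processed pseudogene, was counted at 25.8% to 31.5% of the *Srsf5* counts, and how reads were shared between them is not given in the sources used here. With both added, the level ran from 57.7 to 77.3 CPM in *Zeb2* fl/fl and from 62.2 to 83.6 CPM in *Zeb2* cKO hearts, and the groups overlapped as before. The remaining 7 regulators besides *Ptbp1*, *Srsf5* and *Mbnl2* shared no such stretch with another gene.

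**Figure D3:**
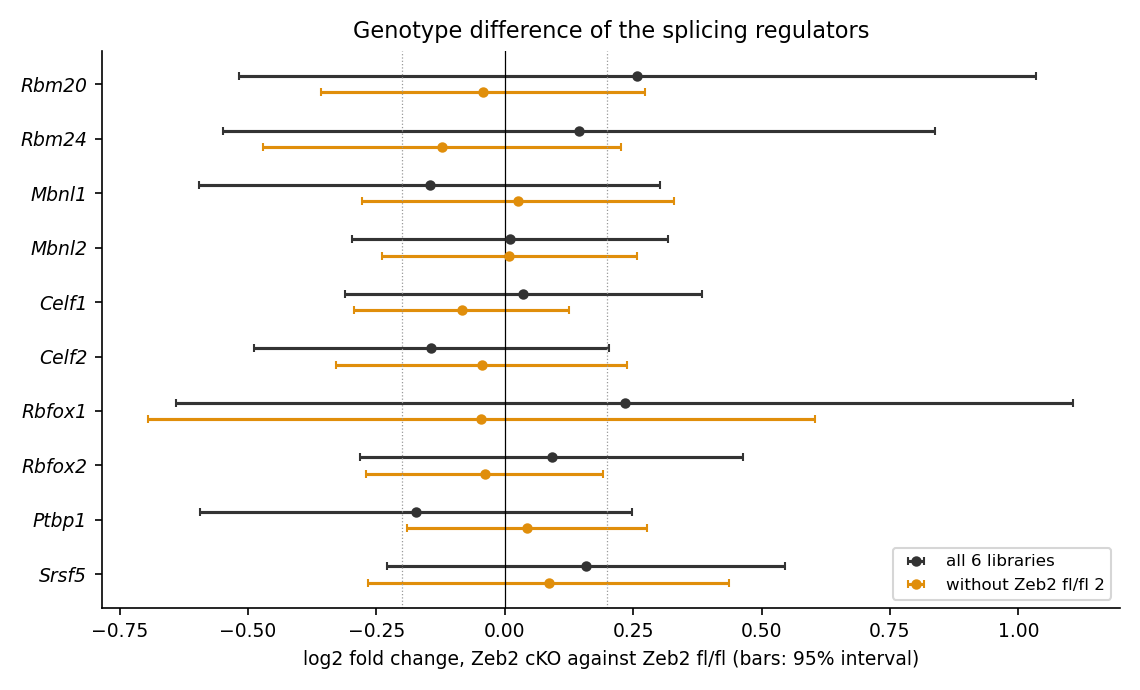
Log2 fold change of each regulator in *Zeb2* cKO against *Zeb2* fl/fl hearts from edgeR (x axis), with 95% intervals as bars. Black uses all 6 libraries and orange leaves out *Zeb2* fl/fl replicate 2; dotted lines mark -0.2 and 0.2. Every interval includes 0, and the orange points lie between -0.12 and 0.086.

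*Zeb2* fl/fl replicate 2 lay at an end of the range in 9 of the 10 regulators. It lay below the other 5 libraries in 6 regulators (*Rbm20*, *Rbm24*, *Celf1*, *Rbfox1*, *Rbfox2* and *Srsf5*) and above them in 3 (*Mbnl1*, *Celf2* and *Ptbp1*), where 34.6% of all tested genes were lowest and 35.2% highest in this library. Without it, 7 of the 10 log2 fold changes changed sign, and they ran from -0.12 (*Rbm24*) to 0.086 (*Srsf5*). In that comparison 0 regulators were under -0.2 and 0 over 0.2, beside 11.7% and 14.2% of all tested genes. The median of the regulators was then -0.041 and that of all tested genes 0.0025. With all libraries, the spread between mice was larger in *Zeb2* fl/fl than in *Zeb2* cKO hearts. The median coefficient of variation was 18.6% and 9.97% over the regulators, and 19.5% and 11.2% over all tested genes. In *Zeb2* cKO hearts the values of the regulators ran from 1.52% to 30.6%. In *Zeb2* fl/fl they ran from 3.37% to 43.3%, and from 0.251% (*Ptbp1*) to 26.3% (*Rbfox1*) without replicate 2. Without this library, *Rbm20* ranged over 1.28-fold in the other 5 hearts in place of 2.52-fold, and *Rbm24* over 1.42-fold in place of 2.32-fold. *Rbfox1* still ranged over 1.88-fold.

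The place of this library changed with the scale. Per 1000 CPM of cardiomyocyte markers it was the lowest library in 2 regulators, *Rbm20* and *Rbm24*, and the highest in 7, and for *Rbfox1* it lay among the others. *Celf1* turned from 0.782 times the mean of the other libraries in CPM to 1.36 times on this scale, *Rbfox2* from 0.749 to 1.31 times and *Srsf5* from 0.820 to 1.44 times. *Mbnl2*, level in CPM at 0.989 times, stood at 1.72 times the others. *Mbnl1*, *Celf2* and *Ptbp1*, already highest in CPM, were at 2.37, 2.13 and 2.53 times the mean of the others. The groups overlapped in all 10 regulators on this scale as well.

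Levels of different genes were compared per length, as CPM per kilobase of all annotated exons of a gene (Gencode M21). On this scale *Rbm20* came first at 19.3, followed by *Rbm24* at 16.3, *Srsf5* at 13.6, *Mbnl2* at 13.5, *Mbnl1* at 9.12, *Rbfox2* at 7.72, *Celf1* at 7.19, *Ptbp1* at 4.50, *Rbfox1* at 2.61 and *Celf2* at 2.10 CPM per kilobase, as means of the 6 libraries. Per length, 95.6% of all tested genes lay below *Rbm20* and 56.8% below *Celf2*. Of the 9 steps between neighbours in this order, 3 had the same direction in 6 of 6 libraries: *Rbm20* over *Rbm24*, *Mbnl2* over *Mbnl1* and *Ptbp1* over *Rbfox1*. None of the 9 passed an exact sign-flip permutation test after adjustment over them, since the smallest p of 6 libraries, 0.03125, became 0.0938. The other 6 steps held in 2 to 5 libraries. Among these, the mean log2 ratio exceeded its SD over the libraries for *Celf1* over *Ptbp1* (0.69, SD 0.37, n = 6) and narrowly for *Rbfox2* over *Celf1* (0.099, SD 0.096, n = 6), and for the remaining 4 it did not. The order depended on the length used. Per kilobase of the longest annotated transcript, *Mbnl1* came first and *Mbnl2* second, with *Rbm20* and *Rbm24* next, because the annotated exons of *Mbnl1* cover 18717 bases and its longest transcript 5655.

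**Figure D4:**
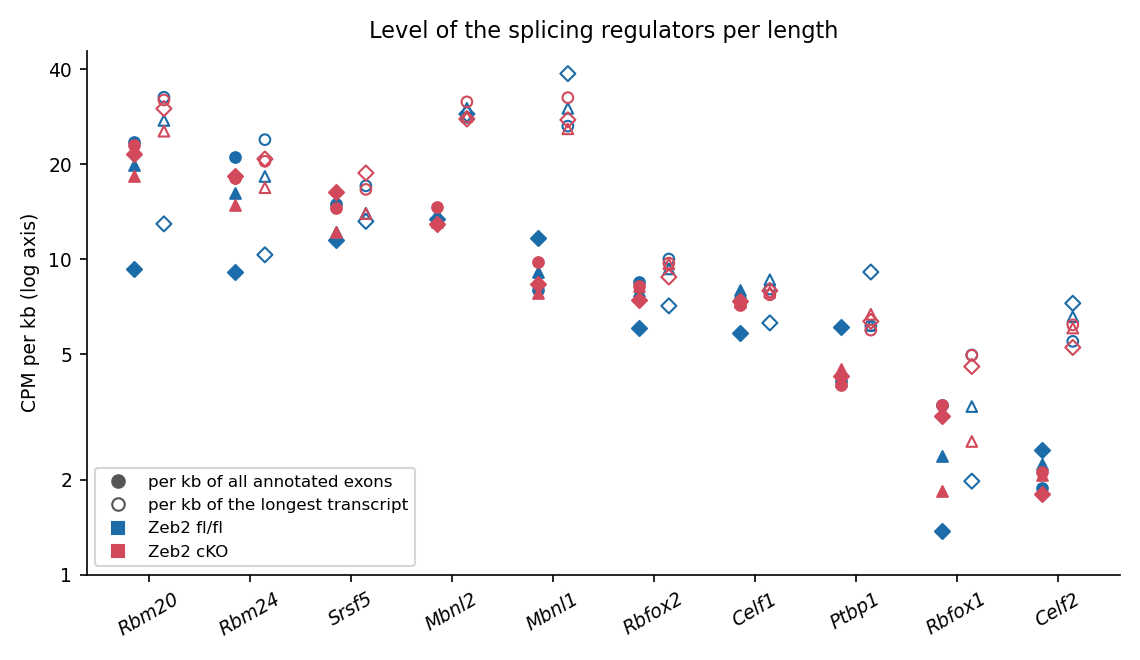
CPM per kilobase (log axis) of each splicing regulator in the 6 libraries, per kilobase of all annotated exons (filled) and of the longest annotated transcript (open). Blue is *Zeb2* fl/fl and red *Zeb2* cKO, and the shape gives the replicate number. *Rbm20* leads by exons at a mean of 19.3 and *Mbnl1* by the longest transcript at a mean of 30.2.

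Within families, paralogs were compared as a ratio inside each library, which does not depend on how libraries are scaled. *Rbm20* and *Rbm24*, which were not grouped as a family here, were compared in the same way. Per kilobase of exons, *Mbnl2* was 1.49-fold above *Mbnl1*, *Celf1* 3.43-fold above *Celf2*, *Rbfox2* 3.10-fold above *Rbfox1* and *Rbm20* 1.17-fold above *Rbm24*. Each order held in 6 of 6 libraries, with an exact sign-flip permutation p of 0.03125, the smallest that 6 libraries can give, and 0.03125 when adjusted over the 4 ratios. The tests of *Mbnl2* over *Mbnl1* and *Rbm20* over *Rbm24* are also steps of the order above. Adjusted there over 9 steps, their exact permutation p was 0.0938, so passing 0.05 depended on the set of tests adjusted over. Measured by the longest transcript, the ratio of *Mbnl1* to *Mbnl2* turned to 1.03-fold in favour of *Mbnl1* (exact permutation p = 0.875), and *Celf1* was above *Celf2* 1.26-fold in 5 of 6 libraries (exact permutation p = 0.0625). The orders of *Rbfox2* over *Rbfox1* (2.54-fold) and of *Rbm20* over *Rbm24* (1.44-fold) held in 6 of 6 libraries with either length, at an exact permutation p of 0.03125, or 0.0625 when adjusted over the 4 ratios by the longest transcript.

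None of these ratios differed by genotype beyond the spread between mice. The log2 ratio of *Mbnl1* to *Mbnl2* was -0.71, -0.19 and -0.62 in *Zeb2* fl/fl and -0.57, -0.63 and -0.75 in *Zeb2* cKO hearts. *Zeb2* fl/fl replicate 2 was again the library apart, with the most *Mbnl1* for its *Mbnl2*. The log2 ratio of *Celf1* to *Celf2* was 1.99, 1.24 and 1.83 in *Zeb2* fl/fl and 1.76, 2.04 and 1.82 in *Zeb2* cKO hearts, with the same library lowest. For *Rbfox1* to *Rbfox2* it was -1.30, -2.13 and -1.74 in *Zeb2* fl/fl and -1.26, -1.23 and -2.16 in *Zeb2* cKO hearts, so that replicate 3 of *Zeb2* cKO was as low as replicate 2 of *Zeb2* fl/fl. *Rbm20* to *Rbm24* varied least, at 0.15, 0.030 and 0.29 in *Zeb2* fl/fl and 0.35, 0.23 and 0.30 in *Zeb2* cKO hearts. The differences between the group means, *Zeb2* cKO minus *Zeb2* fl/fl, were -0.14, 0.19, 0.17 and 0.14 for these 4 log2 ratios in that order (exact permutation p = 0.6, 0.7, 0.6 and 0.2, each 0.7 when adjusted over the 4 ratios). Without *Zeb2* fl/fl replicate 2 they were 0.015, -0.040, -0.031 and 0.072.

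The whole families showed which paralogs the heart RNA held. As shares of counts per exon base, *Mbnl3* made up 0.140% to 0.589% of the MBNL family. Among the CELF genes, *Celf1* held 69.2% to 80.1% and *Celf2* 19.5% to 29.4%, with *Celf3* to *Celf6* under 1% each in every library. *Rbfox3*, a marker of neurons, had 1 count in each of 2 libraries and 0 in the rest. *Ptbp1* was not the leading gene of its family. *Ptbp3*, the paralog known from blood cells, held 49.6% to 57.7%, *Ptbp1* 31.4% to 35.4% and *Ptbp2*, the neuronal paralog, 9.04% to 15.6%. *Rbm24* held 78.7% to 83.5% of the sum with *Rbm38*, its paralog. *Srsf5* had the largest mean share of the 11 SRSF genes measured, 18.1% to 24.8%, but only narrowly over *Srsf2*, at 19.0% to 22.5%. *Srsf2* was higher in replicates 2 and 3 of *Zeb2* fl/fl and replicate 3 of *Zeb2* cKO. By the longest transcript *Srsf5* came second to *Srsf2*.

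**Figure D5:**
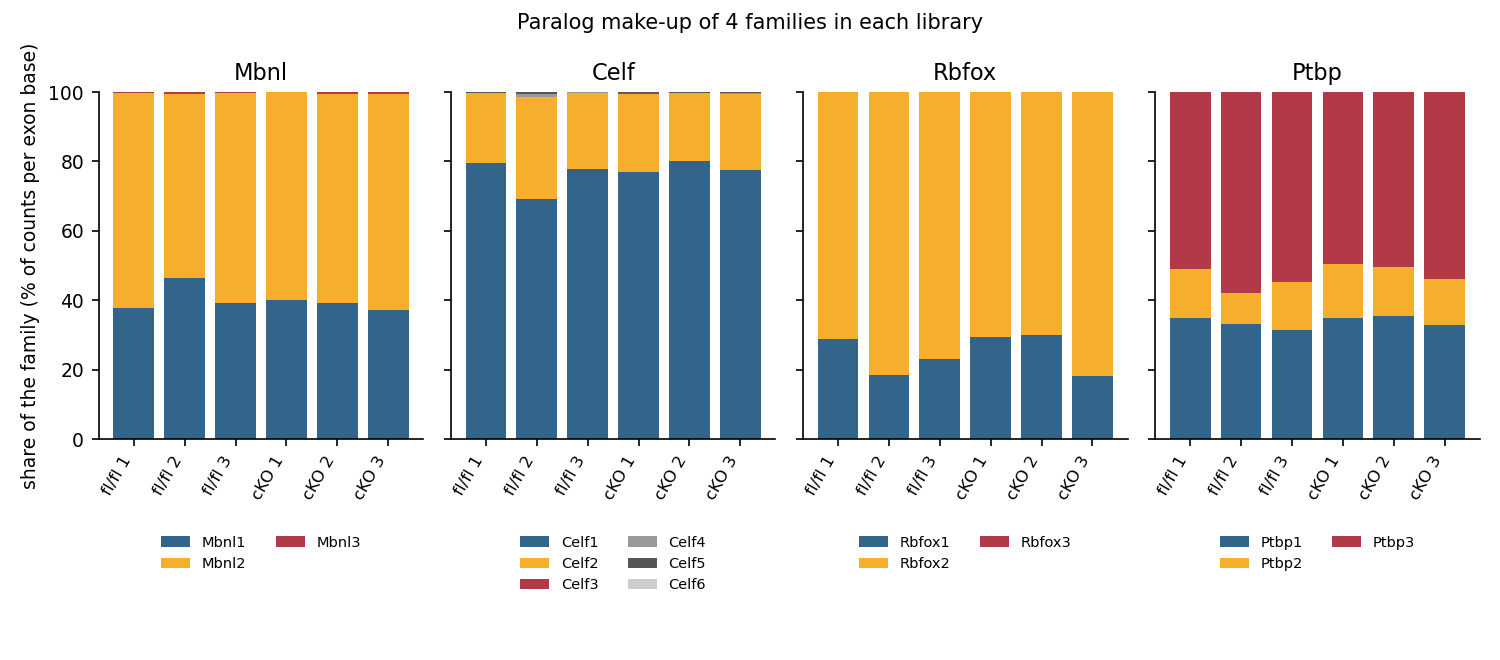
Share of each paralog in its family in each library (y axis, percent of counts per exon base), for the MBNL, CELF, RBFOX and PTBP genes. *Zeb2* fl/fl replicate 2 has the largest *Mbnl1*, *Celf2* and *Ptbp3* shares, and *Rbfox1* is low in it and in *Zeb2* cKO replicate 3.

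Of 21 paralogs of the regulators, 15 were tested and the other 6 had at most 27 counts in a library. With edgeR's quasi-likelihood test, the smallest unadjusted p among these 15 was 0.102. The log2 fold change was below -0.2 for 2 of them, *Ptbp3* at -0.32 (standard error 0.23) and *Srsf9* at -0.25 (standard error 0.13), and above 0.2 for 0. Of all tested genes, 22.6% lay below -0.2 and 15.9% above 0.2. *Srsf9* had 5.26, 5.70 and 5.03 CPM in *Zeb2* fl/fl mice, against 4.42, 4.15 and 4.86 CPM in *Zeb2* cKO mice. It was the only tested paralog whose groups did not overlap, where 2.97% of all tested genes were lower and 3.39% higher without overlap. *Ptbp3* had 45.1, 79.1 and 53.8 CPM in *Zeb2* fl/fl mice, against 42.3, 45.2 and 54.8 CPM in *Zeb2* cKO mice. Like *Ptbp1* it was high in *Zeb2* fl/fl replicate 2, without which its log2 fold change was -0.057. In the comparison without that library, *Rbm38*, the paralog of *Rbm24*, was the 1 tested paralog with an unadjusted p under 0.05, as were 2.63% of all tested genes. *Rbm38* had 13.9, 5.17 and 12.6 CPM in *Zeb2* fl/fl mice, against 11.3, 10.9 and 10.3 CPM in *Zeb2* cKO mice. Its log2 fold change was 0.037 with all libraries and -0.29 without replicate 2 (95% interval -0.54 to -0.042, adjusted p = 1.00 from edgeR). *Rbm38* and *Srsf4* (-0.21) were then under -0.2 and *Mbnl3* (0.32) over 0.2, beside 11.7% and 14.2% of all tested genes.

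Beyond these families, 53 of 54 other splicing factors and spliceosome genes were tested. None had an adjusted p under 0.05, and 2, *Esrp2* and *Nova1*, had an unadjusted one under 0.05, beside 1.9% of all tested genes. *Esrp2*, an epithelial splicing regulator, had 0.319, 0.160 and 0.182 CPM in *Zeb2* fl/fl mice, against 0.659, 0.369 and 0.819 CPM in *Zeb2* cKO mice. Its *Zeb2* cKO libraries all lay above the *Zeb2* fl/fl libraries, on 7 to 44 counts per library. It reached the minimum of the filter on low counts in 3 *Zeb2* cKO libraries and 1 *Zeb2* fl/fl library, so it was tested only because of the group in which it was higher, and its values are a description. Its difference was 1.49 on the log2 scale (standard error 0.43, adjusted p = 0.957 from edgeR), and 1.31 without *Zeb2* fl/fl replicate 2. *Nova1*, a neuronal splicing regulator, stood at 0.77 on the log2 scale (standard error 0.28, adjusted p = 0.957 from edgeR), with overlapping groups, and at 0.71 without *Zeb2* fl/fl replicate 2. In the whole list, 2 genes were under -0.2 (*Hnrnpll* at -0.22 and *Khdrbs1* at -0.20) and 5 over 0.2, with a median of 0.012. Of all tested genes, 22.6% were under and 15.9% over. Groups did not overlap in 2 genes higher in *Zeb2* cKO hearts, *Esrp2* and *Clk4*, and in 2 lower, *Hnrnpll* and *Srrm2*. Among all tested genes 3.39% were higher and 2.97% lower without overlap.

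Known splicing targets of the regulators were examined for their gene level, which carries no information on exon use. Of 25 such genes 24 were tested, 2 with a log2 fold change under -0.2 (*Actn1* and *Enah*), 6 with one over 0.2 and 0 with an adjusted p under 0.05. Of all tested genes, 22.6% lay under -0.2 and 15.9% over 0.2. *Tpm2*, a tropomyosin gene, had 10.4, 9.57 and 9.77 CPM in *Zeb2* fl/fl mice, against 13.0, 11.5 and 12.2 CPM in *Zeb2* cKO mice. It was the only target whose groups did not overlap, where 2.97% of all tested genes were lower and 3.39% higher without overlap. Its difference was 0.30 on the log2 scale (standard error 0.11, adjusted p = 0.957 from edgeR), and 0.28 without *Zeb2* fl/fl replicate 2. *Zeb2* fl/fl replicate 2, the library with the low cardiomyocyte markers, was the lowest library in 19 of the 25 targets, and without it 6 were under -0.2 and 3 over 0.2. *Ttn*, the main target of RBM20, was at 22884 CPM in *Zeb2* fl/fl replicate 2 and at 36302 to 44093 CPM in the others. Per 1000 CPM of cardiomyocyte markers it was at 0.991 times the mean of the others. *Ryr2*, another RBM20 target, was at 624 CPM against 1465 to 1848 CPM, and per 1000 CPM of these markers at 0.645 times the mean of the others. It is itself among these markers, so it was set against a sum that contains it. The cause of the unequal levels in this library was not tested.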

How the data were processed

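RNA-seq libraries of 3 *Zeb2* fl/fl and 3 *Zeb2* cKO hearts were assigned to groups from the sample labels. According to the methods, the authors made stranded libraries from RNA depleted of ribosomal RNA, sequenced 75-base single-end reads and counted them on Gencode M4 (GRCm38) with the STAR workflow. The deposited values are raw counts per gene, without normalization. The handling of multimapping reads is not given in the sources used here.

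Gene names, coordinates and exon lengths were added from Gencode M21 by gene identifier. In R 4.3.3, edgeR 4.0.16 was used for TMM normalization and the filter filterByExpr, and genes were tested with glmQLFit and glmQLFTest over all genes, with Benjamini-Hochberg adjustment. The study used DESeq; in its place DESeq2 1.42.0 was run as an alternative. Single genes and ratios were compared by exact two-sided permutation tests. Near-identical stretches were searched with BLAST 2.17.0. The steps were tested on simulated data. Depth was at least 37288174 counts per library, 14301225 or more of them outside the mitochondrially encoded genes. Whether depth or the spread between mice limits the precision for the regulators was not tested.

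The regulators, the lists of paralogs, other splicing genes, targets and cell type markers, and the alternatives were chosen with earlier results of these data known. Named were the regulators, their paralogs, *Zeb2*, the 3 genes of smallest p per direction in the other splicing and target lists (not all are printed), and the 3 genes nearest in pattern to *Rbm20* and *Ptbp1*. *Ttn*, *Ryr2*, *Atp2a1*, *Clk4*, *Srrm2*, the single marker genes named, and the ratio to cardiomyocyte markers, were added after their values were seen. Alternatives covered normalization, test, filter, mitochondrial genes, dispersions, replicate number, fold change cutoff, gene length and each library left out.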

Additional observations from a re-analysis of the deposited data

How the results depend on the processing

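No regulator had an adjusted p under 0.05 in any edgeR alternative or with DESeq2's Wald test. Of 120 alternative log2 fold changes of the regulators, 111 kept their direction and 9 turned, 7 of them without *Zeb2* fl/fl replicate 2 and 2 for *Mbnl2* without replicate 1 of either group. With 1 library left out, the log2 fold change ran from -0.043 to 0.53 for *Rbm20*, -0.12 to 0.44 for *Rbm24*, -0.26 to 0.026 for *Mbnl1*, -0.048 to 0.047 for *Mbnl2*, -0.084 to 0.13 for *Celf1*, -0.24 to -0.045 for *Celf2*, -0.046 to 0.59 for *Rbfox1*, -0.039 to 0.19 for *Rbfox2*, -0.27 to 0.043 for *Ptbp1* and 0.055 to 0.28 for *Srsf5*. The number of regulators under -0.2 then ran from 0 to 3 and of those over 0.2 from 0 to 4. Most passed without *Zeb2* fl/fl replicate 1, with *Celf2*, *Mbnl1* and *Ptbp1* under -0.2 and *Rbfox1*, *Rbm20*, *Rbm24* and *Srsf5* over 0.2, where 28.8% of all tested genes were under and 26.5% over. Without *Zeb2* cKO replicate 3, 1 was under and 4 were over (26.9% and 20.6% of all tested genes). Leaving out *Zeb2* fl/fl replicate 3 gave 1 under and 2 over (27.2% and 21.8% of all tested genes). For *Zeb2* cKO replicate 1 it was 1 under and 0 over (22.1% and 15.4%), and for *Zeb2* cKO replicate 2, 0 under and 1 over (23.6% and 15.7%). The number without overlap of the groups ran from 0 to 1 (*Celf2* without *Zeb2* fl/fl replicate 1, *Celf1* without replicate 2, both lower in *Zeb2* cKO hearts), where 12.1% and 7.22% of all tested genes were lower without overlap. At a cutoff of 0.5 in place of 0.2, 0 regulators were over it.

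By the longest transcript, the log2 ratio of *Mbnl1* to *Mbnl2* turned to 0.040 and that of *Celf1* to *Celf2* fell to 0.34, which follows from the lengths. Adjusted over the 4 ratios, their exact permutation p rose from 0.03125 to 0.875 and 0.0833. For *Rbfox1* to *Rbfox2* and *Rbm20* to *Rbm24* it rose to 0.0625, so none of the 4 was then under 0.05. With 1 library left out the ratios ran from -0.66 to -0.54 for *Mbnl1* to *Mbnl2*, 1.73 to 1.89 for *Celf1* to *Celf2*, -1.72 to -1.53 for *Rbfox1* to *Rbfox2* and 0.20 to 0.27 for *Rbm20* to *Rbm24*, where 5 libraries cannot give an exact permutation p under 0.0625. Their genotype differences ran from -0.24 to 0.015, -0.040 to 0.34, -0.031 to 0.48 and 0.072 to 0.20, the first 3 turning without *Zeb2* fl/fl replicate 2.

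Replicate numbers are shared by the groups but name different mice. Deviations of same-numbered libraries correlated at 0.088, -0.14 and -0.087, so the numbers do not pair them, and no library correlated best with its own number. With the replicate number as a block, the log2 fold change was 0.35 for *Rbm20* and 0.22 for *Rbm24*, 3 regulators were over 0.2 and none was called.

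Of the counts in other lists, those of targets over 0.2 moved most, from 3 to 16 with 1 library left out. In the paralogs 2 to 5 were then under -0.2. DESeq2's Wald test called 1 gene of the whole table at an adjusted p under 0.05, and edgeR none in any alternative, beside 122 to 1134 genes at an unadjusted p under 0.05. The regulators had at least 266 counts in a library, and a limit set by depth was not tested.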

Other observations

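The tested genes whose profile over the 6 libraries was most like that of *Rbm20* were *Gm23833*, *Rhot2* and *Plin4*, by the root mean square difference of centred log2 CPM, which was 0.025, 0.026 and 0.043 among 14745 genes compared. *Rhot2*, a GTPase of the mitochondrial outer membrane, had 19.9, 7.84 and 16.5 CPM in *Zeb2* fl/fl mice, against 18.7, 17.4 and 15.2 CPM in *Zeb2* cKO mice. *Plin4*, a coat protein of lipid droplets, had 96.7, 38.5 and 77.3 CPM in *Zeb2* fl/fl mice, against 92.2, 84.1 and 77.3 CPM in *Zeb2* cKO mice. In both, as in *Rbm20*, *Zeb2* fl/fl replicate 2 was the low library and the other 5 overlapped by genotype.

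Nearest to *Ptbp1* were *Ptpra* at 0.019, *Bend4* at 0.020 and *Prkd3* at 0.028 on the same measure. *Ptpra*, a receptor tyrosine phosphatase, had 20.9, 31.1 and 20.8 CPM in *Zeb2* fl/fl mice, against 20.8, 21.8 and 22.4 CPM in *Zeb2* cKO mice, with *Zeb2* fl/fl replicate 2 as the 1 high library. Likeness over 6 libraries, of which 1 stood apart, is a description only.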
